A study of Homo sapiens with 15 samples.

Results

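CBFB, the 3 RUNX genes and the 3 genes of the ETO family (RUNX1T1, CBFA2T2 and CBFA2T3) were followed in sorted cells of PEO1, a human ovarian cancer line. They were 7 of 19775 genes measured. CBFB was chosen by its rise in CD90+/CD133- over CD90-/CD133- cells, so its values in comparisons with CD90-/CD133- cells are a description with no test. The other 6 genes were listed for their known link to CBFB. The cells had been stained for the surface proteins CD90 and CD133 and sorted into CD90+/CD133+, CD90+/CD133- and CD90-/CD133- fractions. All were parental PEO1 cells kept in RPMI-1640 medium with serum, and no other agent is named. Each fraction was measured on 5 expression arrays (15 in all), numbered as replicates 1 to 5. The methods describe biological replicates for the CD90+/CD133- and CD90-/CD133- fractions, and where separate cultures are not stated the p-values measure only the spread between these samples. PEO1 is a single line, so the replicates are not different patients or tumours.

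CBFB encodes the core-binding factor beta subunit, which does not bind DNA itself. It pairs with a DNA-binding alpha subunit, RUNX1, RUNX2 or RUNX3, and this pairing strengthens the grip of the RUNX protein on its site and protects it from degradation. RUNX1 is best known for blood formation, RUNX2 for bone formation and RUNX3 for T cells and sensory neurons. The ETO family genes encode corepressors that carry histone deacetylases to transcription factors. Fusions of CBFB with MYH11 and of RUNX1 with RUNX1T1 are well-known lesions of acute myeloid leukaemia.

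Values are linear intensities of probe sets, each a group of short probes against 1 transcript region. Intensities under 16 were set to 16 (the floor) and log2 was taken, so a dim probe set shows less change than its gene may have. A difference is the log2 mean of the first fraction minus that of the second, from a limma fit over all 15 arrays with the replicate number as a block. A probe set passed at a Benjamini-Hochberg adjusted p under 0.05 over all 54613 probe sets. The CD90+/CD133+ and CD90+/CD133- fractions were both compared with the same 5 CD90-/CD133- arrays, so these 2 comparisons are not independent. Levels are not compared between probe sets.

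Array medians were 29.4 to 32.4, and 32.7% to 34.5% of probe sets on an array lay under 16. THY1, which encodes CD90, was higher by 4.22 ± 0.24 (SE) in CD90+/CD133+ cells and by 3.67 ± 0.24 in CD90+/CD133- cells than in CD90-/CD133- cells on the log2 scale (limma adjusted p = 1.29e-05 and 2.46e-05). PROM1, which encodes CD133, differed by 4.38 between the CD90+/CD133+ and the CD90+/CD133- fraction, with the first higher (limma adjusted p = 0.00838). All 10 epithelial ovarian carcinoma markers were above the floor. Their summed intensity was 32683 to 45604 in CD90+/CD133+, 36514 to 48919 in CD90+/CD133- and 51907 to 64517 in CD90-/CD133- cells. Of the 4 measured blood markers of 8, only PTPRC, the pan-leukocyte marker, was at the floor on all 15 arrays. The 4 summed to 180.1 to 258.3, 176.2 to 253.4 and 134.9 to 165.7 in the same order of fractions. Of the 7 measured stroma and bone markers of 8, only LUM was at the floor on all arrays. The 7 summed to 260.2 to 305.8, 228.0 to 260.9 and 222.7 to 272.6. Of these 7, 1 passed as higher in CD90+/CD133- over CD90-/CD133- cells, also without the replicate block. In CD90+/CD133+ over CD90+/CD133- cells 1 passed as higher, and 0 without the block. In CD90+/CD133+ over CD90-/CD133- cells 0 passed. As a sign of RNA quality, the excess of 3′ over 5′ signal of the GAPDH controls averaged 0.0498 ± 0.0408 (SD, n = 5) on the log2 scale on the CD90+/CD133+ arrays, 0.186 ± 0.0789 on the CD90+/CD133- arrays and 0.0565 ± 0.0317 on the CD90-/CD133- arrays. The same excess for ACTB was 1.70 ± 0.66 on the CD90+/CD133+ arrays, 2.46 ± 0.56 on the CD90+/CD133- arrays and 1.84 ± 0.32 on the CD90-/CD133- arrays, so that the CD90+/CD133- arrays had the highest mean for both controls. The part of these differences in the results below was not tested. In sorted bulk cells, fewer cells that express a gene and less RNA per cell cannot be told apart.

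CBFB had 2 probe sets, and both were higher on every CD90+ array than on every CD90-/CD133- array. The brighter one, 202370_s_at, read 908.4, 684.5, 862.4, 754.3 and 852.9 on the CD90+/CD133+ arrays of replicates 1 to 5. It read 805.5, 756.3, 736.8, 757.2 and 638.8 on the CD90+/CD133- arrays. On the CD90-/CD133- arrays it read 9.42, 9.52, 46.7, 24.9 and 20.5, so that replicates 1 and 2 lay under the floor and replicate 3 was the highest. The lowest CD90+ array stood far above the highest CD90-/CD133- array, and both CD90+ fractions overlapped each other. The log2 difference from CD90-/CD133- cells was 5.15 in CD90+/CD133+ cells (35.5-fold) and 5.02 in CD90+/CD133- cells (32.4-fold), with 2 of the 5 CD90-/CD133- values set to 16. It was positive in 5 of 5 same-numbered pairs, between 4.21 and 5.83 for CD90+/CD133+ cells and between 3.98 and 5.65 for CD90+/CD133- cells.

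The dimmer CBFB probe set, 206788_s_at, separated the fractions in the same direction and by less. It read 123.9, 89.2, 80.2, 103.9 and 63.4 on the CD90+/CD133+ arrays. It read 134.9, 93.8, 87.0, 93.5 and 72.1 on the CD90+/CD133- arrays. It read 37.3, 42.7, 41.5, 38.3 and 26.2 on the CD90-/CD133- arrays, all above the floor. Replicate 5 was the lowest array of each fraction for this probe set. The log2 difference from CD90-/CD133- cells was 1.29 in CD90+/CD133+ cells (2.45-fold) and 1.36 in CD90+/CD133- cells (2.57-fold), positive in 5 of 5 pairs each.

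The 2 CBFB probe sets therefore gave differences of unequal size. In the same pair of arrays, the log2 difference of 202370_s_at exceeded that of 206788_s_at by 3.86 ± 0.47 (SD, n = 5 pairs; 3.26 to 4.36) for CD90+/CD133+ over CD90-/CD133- cells. The excess was 3.66 ± 0.55 (2.91 to 4.43) for CD90+/CD133- over CD90-/CD133- cells. Over the 15 arrays, which share this split between fractions, the probe sets correlated at r = 0.91 on the log2 scale, and after each fraction's mean was removed at r = 0.19. Between CD90+/CD133+ and CD90+/CD133- cells, the only comparison in which CBFB was tested, neither probe set passed. The difference was 0.13 ± 0.24 (SE) for 202370_s_at and -0.07 ± 0.12 for 206788_s_at, each with a limma adjusted p of 1. The first was positive in 3 of 5 pairs and the second in 1 of 5.

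**Figure D1:**
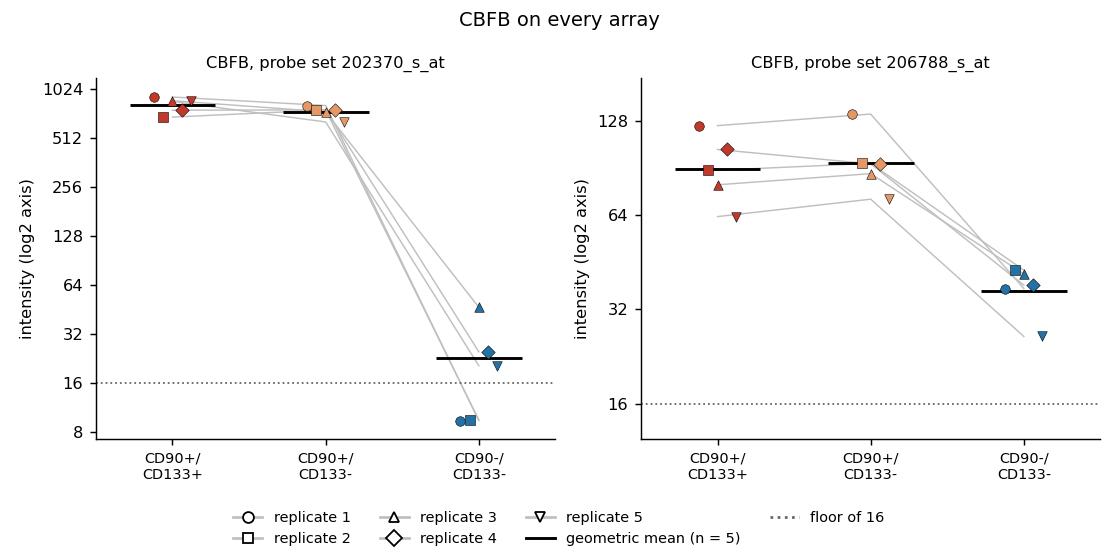
Intensity of the 2 CBFB probe sets on all 15 arrays (log2 axes), by fraction, with a symbol for each replicate number, grey lines between arrays of the same number, black bars at the geometric mean (n = 5) after values under 16 were set to 16, and the floor dotted. Both CD90+ fractions lie above all CD90-/CD133- arrays in both panels, at 638.8 or more against 46.7 or less for 202370_s_at, and at 63.4 or more against 42.7 or less for 206788_s_at.

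The 7 genes had 25 probe sets that could be assigned to 1 of them, and 23 of these belonged to the genes other than CBFB. Of all 25, 11 were at or below the floor on every array and have no measured difference. These were 6 of 7 for RUNX1T1, 2 of 6 for RUNX2, 2 of 3 for RUNX3 and the single probe set of CBFA2T3. Of the 23, 2 were lower and 0 higher in CD90+/CD133- cells, relative to the CD90-/CD133- fraction (8.70% lower, against 11.2% of all probe sets lower and 11.5% higher). In CD90+/CD133+ over CD90-/CD133- cells 4 were lower and 0 higher (17.4% lower, against 11.7% of all probe sets lower and 9.53% higher). The shares lie on either side of the background, and several probe sets read the same gene. At an unadjusted p under 0.05 the limma fit had 0 higher in CD90+/CD133- and 1 higher in CD90+/CD133+ cells, and the methods' t-test had 1 higher in each at that level and 0 after adjustment.

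RUNX1, the alpha subunit best known from blood stem cells, was lower in both CD90+ fractions. Of 13 probe sets for RUNX1, only 208129_x_at could be tied to RUNX1, through the accession of its target. It read 30.9, 29.6, 23.3, 28.1 and 25.2 on the CD90+/CD133+ arrays, 44.8, 32.4, 30.1, 30.9 and 33.1 on the CD90+/CD133- arrays, and 56.2, 40.3, 49.8, 56.9 and 46.6 on the CD90-/CD133- arrays. Every CD90+/CD133+ array lay below every CD90-/CD133- array, whereas replicate 1 of CD90+/CD133- cells lay above the lowest CD90-/CD133- array. RUNX1 fell by 0.86 ± 0.10 (SE) in CD90+/CD133+ cells (limma adjusted p = 4.04e-04) and by 0.55 ± 0.10 in CD90+/CD133- cells (adjusted p = 0.00413), in 5 of 5 pairs each. Between CD90+/CD133+ and CD90+/CD133- cells the difference was -0.31 ± 0.10, negative in 5 of 5 pairs, and did not pass (limma adjusted p = 0.135).

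All 13 RUNX1 probe sets are annotated to RUNX1 together with 2 non-coding genes of the same chromosome, and for the other 12 no accession settles which of them is read. Of the 12, 3 were at or below the floor on every array. The brightest, 209360_s_at, read 345.0, 345.4, 401.4, 308.3 and 375.8 on the CD90+/CD133+ arrays. It read 394.9, 334.4, 329.7, 363.2 and 451.9 on the CD90+/CD133- arrays and 498.1, 504.3, 568.3, 522.4 and 719.0 on the CD90-/CD133- arrays. All CD90+ arrays lay below all CD90-/CD133- arrays, by 0.65 ± 0.09 (SE) on the log2 scale in CD90+/CD133+ cells (limma adjusted p = 8.57e-04) and by 0.58 ± 0.09 in CD90+/CD133- cells (adjusted p = 0.00154). Of these 12, the same 4 passed as lower in both comparisons, 209360_s_at, 209359_x_at, 211180_x_at and 210365_at, and 0 as higher (0 also at an unadjusted p under 0.05 and by the methods' t-test). The 4 are 33.3% of the 12, against 11.7% of all probe sets lower in CD90+/CD133+ cells and 11.2% in CD90+/CD133- cells, but all 12 read 1 locus and are not separate genes. Their log2 differences were -0.97 to -0.59 in CD90+/CD133+ cells and -0.78 to -0.49 in CD90+/CD133- cells. The other 5 above the floor had differences of -0.25 to -0.01 and -0.12 to -0.01 that did not pass.

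RUNX2, the alpha subunit needed for osteoblasts, was lower in CD90+/CD133+ cells by 1 of its 6 probe sets. The probe set 232231_at read 223.3, 194.1, 173.6, 147.7 and 206.7 on the CD90+/CD133+ arrays. It read 221.3, 216.2, 261.9, 228.6 and 296.3 on the CD90+/CD133- arrays and 244.6, 279.1, 271.9, 297.7 and 358.2 on the CD90-/CD133- arrays. The CD90+/CD133+ and CD90-/CD133- arrays did not overlap, and the CD90+/CD133- arrays overlapped both. RUNX2 fell by 0.62 ± 0.12 (SE) in CD90+/CD133+ relative to CD90-/CD133- cells (limma adjusted p = 0.00511, 5 of 5 pairs). In CD90+/CD133- relative to CD90-/CD133- cells the difference was -0.24 ± 0.12 (adjusted p = 0.203, 5 of 5 pairs negative), and in CD90+/CD133+ relative to CD90+/CD133- cells it was -0.38 ± 0.12 (adjusted p = 0.125, 4 of 5 pairs negative). The other RUNX2 probe sets above the floor, 221282_x_at, 221283_at and 236858_s_at, had log2 differences of -0.15 to 0.15 over the 3 comparisons and did not pass. Which RUNX2 transcripts each probe set reads was not analysed here.

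RUNX3 and RUNX1T1 were each readable from a single dim probe set, and neither passed in any comparison. RUNX3, the alpha subunit known from T cells and sensory neurons, read 50.04, 40.9, 46.4, 39.0 and 49.0 on the CD90+/CD133+ arrays by 234928_x_at. It read 41.2, 44.0, 33.6, 37.5 and 37.7 on the CD90+/CD133- arrays and 43.5, 40.9, 42.8, 39.6 and 45.7 on the CD90-/CD133- arrays. All 3 fractions overlapped, with log2 differences of 0.08 ± 0.08 (SE), -0.14 ± 0.08 and 0.21 ± 0.08 for CD90+/CD133+ over CD90-/CD133-, CD90+/CD133- over CD90-/CD133- and CD90+/CD133+ over CD90+/CD133- cells (limma adjusted p = 0.687, 0.325 and 0.193). RUNX1T1, the ETO protein itself, read 28.2, 29.1, 25.4, 28.2 and 23.8 on the CD90+/CD133+ arrays by 216832_at. It read 23.4, 21.4, 19.2, 24.4 and 25.5 on the CD90+/CD133- arrays and 23.1, 19.5, 24.2, 25.9 and 19.2 on the CD90-/CD133- arrays, and the fractions overlapped. Its difference was 0.27 ± 0.10 for CD90+/CD133+ over CD90-/CD133- cells, positive in 5 of 5 pairs (limma adjusted p = 0.0993), and 0.03 ± 0.10 for CD90+/CD133- over CD90-/CD133- cells (adjusted p = 1). CBFA2T3, an ETO family corepressor of erythroid and stem cell programmes, never exceeded 9.24 on any array.

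CBFA2T2, the ETO family member known from germ cells and pluripotent cells, was the only one of its family that passed, with 5 probe sets all above the floor in at least 1 fraction. The probe set 238549_at differed most between replicate numbers. It read 33.0, 51.7, 73.6, 73.7 and 112.6 on the CD90+/CD133+ arrays, 44.2, 59.3, 70.0, 97.9 and 131.5 on the CD90+/CD133- arrays, and 52.9, 88.2, 105.4, 134.6 and 154.6 on the CD90-/CD133- arrays. In each fraction the array of replicate 1 was the lowest and that of replicate 5 the highest, and the 3 fractions overlapped. Within pairs it fell by 0.66 ± 0.08 (SE) in CD90+/CD133+ cells (limma adjusted p = 5.01e-04) and by 0.42 ± 0.08 in CD90+/CD133- cells (adjusted p = 0.00490), in 5 of 5 pairs each. Both calls rested on the pairing, since without the replicate block the adjusted p was 0.402 and 0.682.

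The other CBFA2T2 probe sets moved less. The dim 209145_s_at read 15.7 to 18.7 in CD90+/CD133+, 15.5 to 19.8 in CD90+/CD133- and 18.4 to 23.9 in CD90-/CD133- cells. It fell by 0.26 ± 0.07 (SE) in CD90+/CD133+ cells (limma adjusted p = 0.0341, 5 of 5 pairs), which did not hold without the block (adjusted p = 0.0810) or in 14 of 20 fits that each left out 1 array or 1 replicate number. The brightest, 207625_s_at, read 111 to 139 in CD90+/CD133+, 109.6 to 173 in CD90+/CD133- and 124 to 162 in CD90-/CD133- cells and did not pass, at differences of -0.18 ± 0.07 and -0.11 ± 0.07 from CD90-/CD133- cells (adjusted p = 0.0885 and 0.307). The differences of 209144_s_at and 1554637_a_at from CD90-/CD133- cells were -0.28 to -0.15 and did not pass either.

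**Figure D2:**
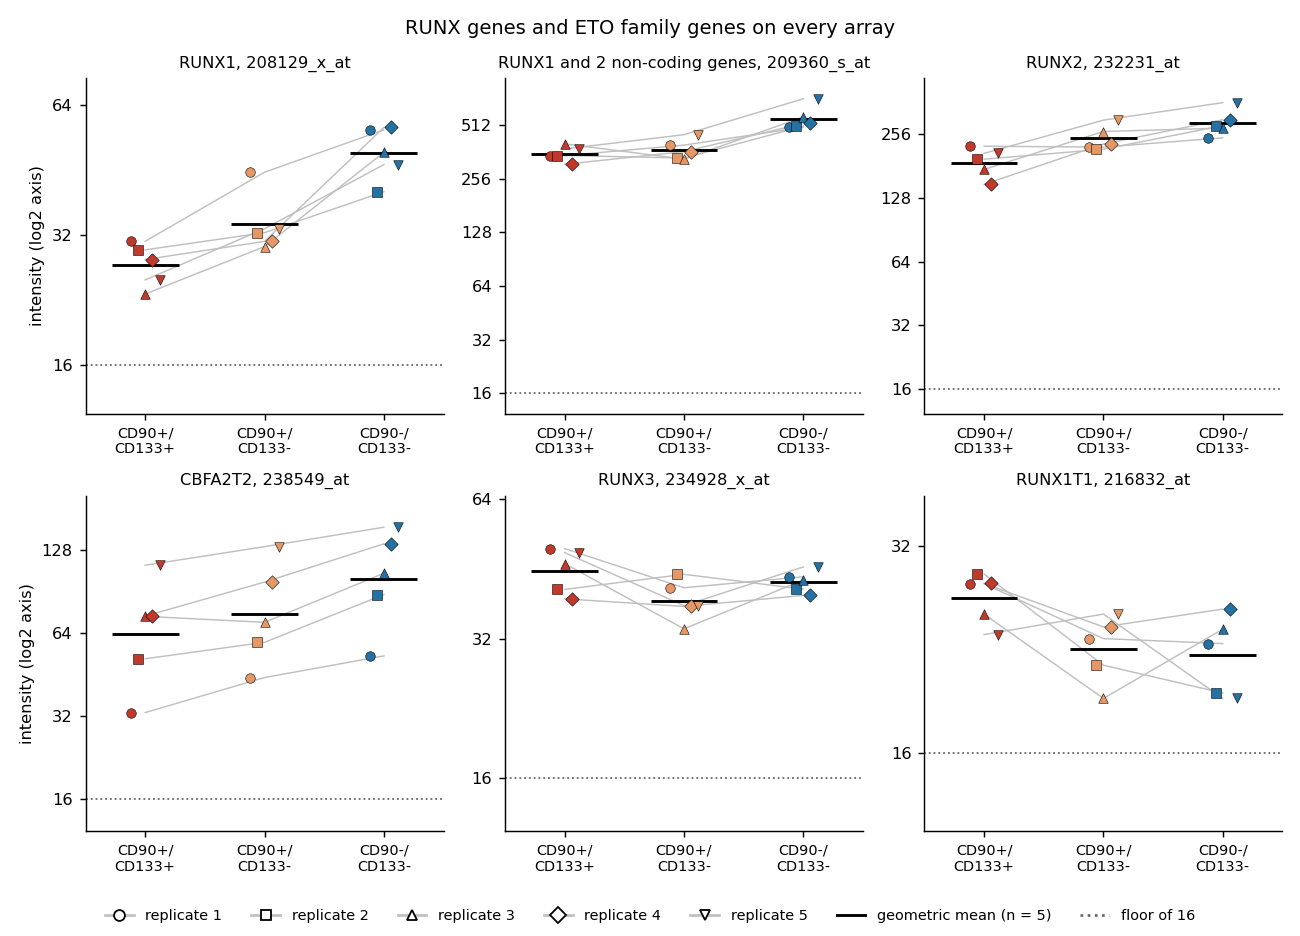
Intensity of 6 probe sets on all 15 arrays (log2 axes), by fraction, with a symbol for each replicate number, grey lines between arrays of the same number, black bars at the geometric mean (n = 5) and the floor of 16 dotted. The RUNX1 and RUNX2 probe sets are lowest in CD90+/CD133+ cells, the CBFA2T2 lines of replicates 1 and 5 lie apart in all fractions (33.0 and 112.6 on the CD90+/CD133+ arrays, 52.9 and 154.6 on the CD90-/CD133- arrays), and RUNX3 and RUNX1T1 overlap in all fractions.

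Between CD90+/CD133+ and CD90+/CD133- cells, 0 of the 23 probe sets passed by limma, where 1.1% of all probe sets were higher and 1.87% lower. At an unadjusted p under 0.05, limma had 2 higher and 3 lower and the methods' t-test 1 higher and 2 lower (0 after adjustment). The 12 shared RUNX1 probe sets had 0 by any of these counts. Among the 12 probe sets above the floor on at least 1 array, CBFB left out, the median log2 difference was -0.17 in CD90+/CD133+ and -0.16 in CD90+/CD133- relative to CD90-/CD133- cells. The 9 shared RUNX1 probe sets above the floor were all negative in both of these comparisons, with medians of -0.25 and -0.12. The median over all genes was 0 in each comparison.

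**Figure D3:**
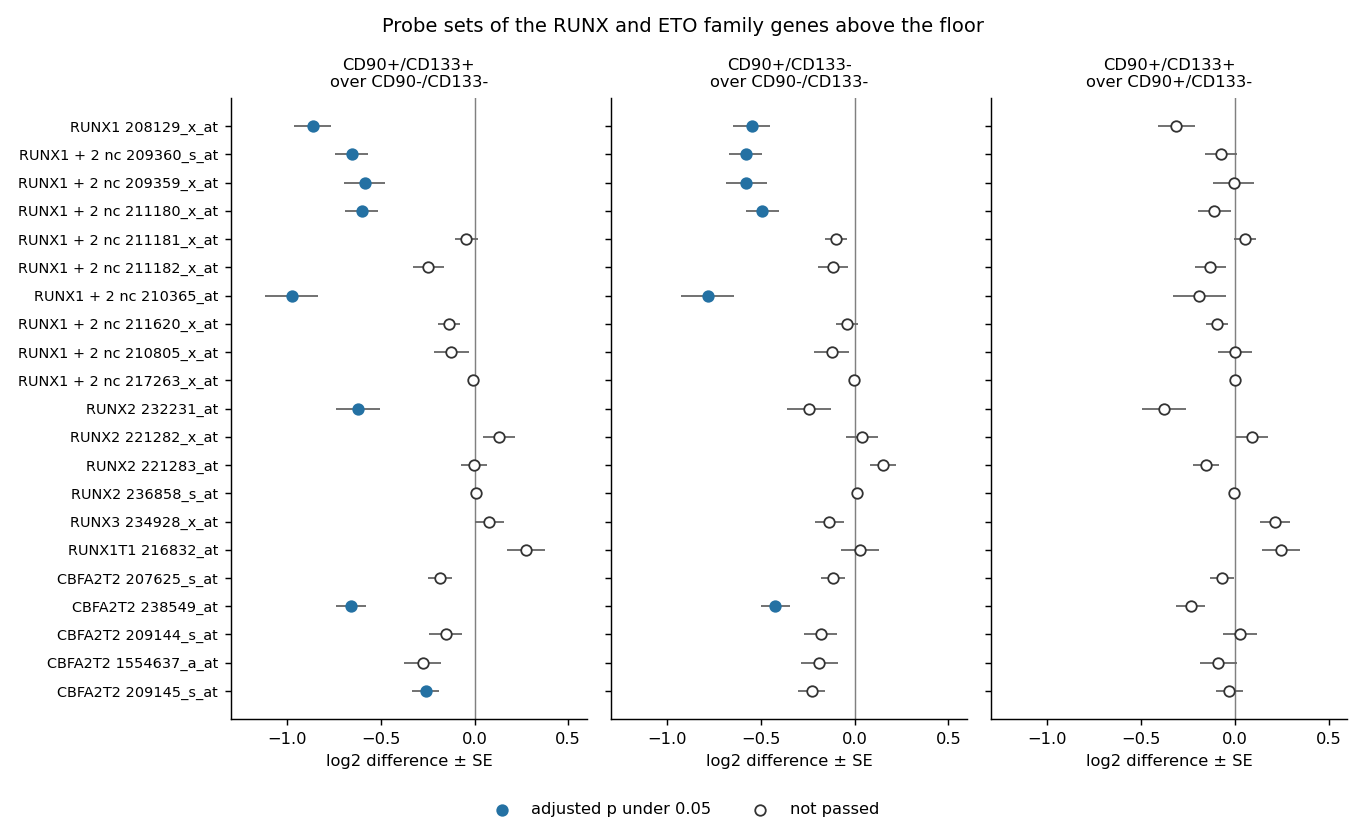
Log2 difference with its standard error for each of the 21 probe sets of RUNX1, RUNX2, RUNX3, RUNX1T1 and CBFA2T2 that exceeded the floor, in the 3 comparisons ("+ 2 nc" marks RUNX1 probe sets that also name 2 non-coding genes and, unlike 208129_x_at, are not tied to RUNX1 by accession; filled points have a limma adjusted p under 0.05). The filled points are all negative, 8 in CD90+/CD133+ and 6 in CD90+/CD133- over CD90-/CD133- cells, and the panel of CD90+/CD133+ over CD90+/CD133- cells has none.

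CBF/RUNX complexes recognise the motif TGTGGT, which on the opposite strand reads as ACCACA, and promoters of RUNX genes are shown because RUNX1 and RUNX2 both passed as lower in CD90+/CD133+ cells. Windows from 250 bases before to 50 bases after the start of transcription were taken from RefSeq on GRCh38.p14. They were used for 5 of the 7 genes (7 windows). CBFB and RUNX1T1 have none here, and for RUNX1T1 any window on its chromosome was set aside. Motifs on either strand are in capitals, each sequence is written 5′ to 3′ on the gene's strand, and a match is a description, not a bound site. The first window is an upstream start of RUNX2 at chr6:45328080-45328379 (plus strand), the second an upstream start of RUNX3 at chr1:24964961-24965260 (minus strand), and the third RUNX1 at chr21:34888650-34888949 (minus strand).
RUNX2: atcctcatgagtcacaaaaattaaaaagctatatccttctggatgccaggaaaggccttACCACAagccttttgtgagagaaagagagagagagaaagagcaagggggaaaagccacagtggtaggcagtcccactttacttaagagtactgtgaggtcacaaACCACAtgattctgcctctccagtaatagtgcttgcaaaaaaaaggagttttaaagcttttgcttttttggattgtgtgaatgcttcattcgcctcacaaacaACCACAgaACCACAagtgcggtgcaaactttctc
RUNX3: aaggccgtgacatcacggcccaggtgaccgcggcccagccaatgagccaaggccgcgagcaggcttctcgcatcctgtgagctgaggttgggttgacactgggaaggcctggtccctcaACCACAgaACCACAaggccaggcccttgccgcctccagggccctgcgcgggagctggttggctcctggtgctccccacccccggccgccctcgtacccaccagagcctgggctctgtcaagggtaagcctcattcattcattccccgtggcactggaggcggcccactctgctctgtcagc
RUNX1: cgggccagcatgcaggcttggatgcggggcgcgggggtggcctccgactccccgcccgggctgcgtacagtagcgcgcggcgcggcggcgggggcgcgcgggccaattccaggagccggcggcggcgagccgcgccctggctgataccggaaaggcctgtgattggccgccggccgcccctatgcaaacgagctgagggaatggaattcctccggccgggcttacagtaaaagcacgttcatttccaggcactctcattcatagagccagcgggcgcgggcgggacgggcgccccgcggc
The RUNX2 window held 4 matches and the RUNX3 window 2, all read as ACCACA. Both windows share the 18-base run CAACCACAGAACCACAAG, which holds 2 of the matches. The RUNX1 window, the downstream windows of RUNX2 and RUNX3 and those of CBFA2T2 and CBFA2T3 held none. Only this window of RUNX1 was read, so other RUNX1 starts are not covered and it may not match the upstream starts of RUNX2 and RUNX3. Of all 35116 windows of this length, 13.1% held at least 1 match, 1.31% at least 2 and 0.125% at least 3. Which start the cells used was not measured.

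Proteins that work with or on the RUNX factors were read from 4 lists with 83 genes, of which 75 were measured, each by its brightest probe set. Of the 75, 4 were at the floor on every array, all target genes, as were 3382 of all 19775 genes. Such genes cannot pass, so the shares of all genes are lowered more by them than those of the 75. In CD90+/CD133- over CD90-/CD133- cells 22 of the 75 were higher and 10 lower (29.3% and 13.3%, against 14% and 16.2% of all genes). In CD90+/CD133+ over CD90-/CD133- cells 13 were higher and 12 lower (17.3% and 16%, against 13.1% and 15.8% of all genes). In CD90+/CD133+ over CD90+/CD133- cells 0 were higher and 4 lower (5.33% lower, against 1.71% of all genes higher and 1.75% lower). At an unadjusted p under 0.05 this last comparison had 5 higher by limma and 3 by the methods' t-test. Without the replicate block the counts were 14 and 9, 9 and 11, and 0 and 0. Beside these counts stand the epithelial markers, of which 5 of 10 were lower in CD90+/CD133+ and 4 of 10 in CD90+/CD133- cells, relative to the CD90-/CD133- fraction, and 1 (EPCAM) higher in each, and CD14 of the blood markers, higher in both. Without the block 3 and 2 of the epithelial markers were lower.

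Cofactors of RUNX proteins held the largest rises of the 4 lists. Relative to the CD90-/CD133- fraction, 7 of 26 measured were higher and 5 lower in CD90+/CD133+ cells. These shares were 26.9% and 19.2%, against 13.1% and 15.8% of all genes. For CD90+/CD133- cells 10 were higher and 3 lower (38.5% and 11.5%, against 14% and 16.2% of all genes). TLE4, a Groucho corepressor that binds the end of RUNX proteins, had a median intensity of 218 on the CD90+/CD133+ arrays, 247 on the CD90+/CD133- arrays and 97.9 on the CD90-/CD133- arrays. TLE4 was higher by 1.26 ± 0.11 (SE) and 1.27 ± 0.11 in the CD90+ fractions on the log2 scale (limma adjusted p = 8.41e-05 and 7.98e-05). TBL1X and TBL1XR1, paired subunits of the NCOR corepressor complex, were higher by 1.11 and 0.87 in CD90+/CD133+ cells and by 1.25 and 1.03 in CD90+/CD133- cells. GPS2, a further subunit of the same complex, fell by 0.69 in CD90+/CD133+ and by 0.96 in CD90+/CD133- cells. Within 1 complex the measured subunits thus ran in opposite directions. MEAF6, a subunit of the MOZ acetyltransferase complex, was higher by 0.95 ± 0.07 (adjusted p = 4.50e-05) and 0.84 ± 0.07 (adjusted p = 7.70e-05).

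The modifiers, enzymes and adaptors that phosphorylate, ubiquitinate or bind RUNX proteins, numbered 13 measured. Relative to the CD90-/CD133- fraction, 3 of these were higher and 3 lower in CD90+/CD133+ cells. The shares were 23.1% each, against 13.1% and 15.8% of all genes. For CD90+/CD133- cells 5 were higher and 1 lower (38.5% and 7.69%, against 14% and 16.2% of all genes). Without the replicate block the counts were 0 and 2, and 2 and 1. HIPK2, a nuclear kinase, had a median of 1436 on the CD90+/CD133+ arrays, 1554 on the CD90+/CD133- arrays and 807 on the CD90-/CD133- arrays. It was higher by 0.94 ± 0.14 (SE) and 1.06 ± 0.14 (limma adjusted p = 0.00144 and 7.62e-04), with fractions that overlapped. ITCH, a ubiquitin ligase, fell by 0.76 ± 0.06 (adjusted p = 4.38e-05) and by 0.57 ± 0.06 (adjusted p = 1.71e-04). YAP1, the Hippo coactivator, was higher by 0.38 and 0.52, WWTR1 (TAZ) passed as higher in CD90+/CD133- cells alone (0.50, with 0.21 in CD90+/CD133+ cells), and WWP1, a ubiquitin ligase, fell by 0.38 in CD90+/CD133+ cells. Without the block HIPK2 and YAP1 did not pass in CD90+/CD133+ cells (adjusted p = 0.0528 and 0.106), nor WWTR1 in CD90+/CD133- cells (0.0693).

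Transcription factors that act beside RUNX proteins on DNA gave 18 measured genes. Of these 1 was higher and 3 lower in CD90+/CD133+ cells (against 13.1% and 15.8% of all genes), and 5 higher and 4 lower in CD90+/CD133- cells (against 14% and 16.2% of all genes), relative to CD90-/CD133- cells. Without the replicate block the counts were 1 and 3, and 1 and 4. MYB had a range of 37.9 to 63.4 in CD90+/CD133+, 38.7 to 65.5 in CD90+/CD133- and 76.7 to 120.4 in CD90-/CD133- cells, and fell by 0.96 ± 0.13 (SE) and 0.94 ± 0.13 (limma adjusted p = 8.50e-04 and 9.34e-04). FOXO1 fell by 0.83 ± 0.10 in CD90+/CD133+ cells (adjusted p = 4.58e-04) and its difference was -0.47 ± 0.10 in CD90+/CD133- cells (adjusted p = 0.00875). GATA2 differed by -0.42 ± 0.17 in CD90+/CD133+ cells, which did not pass (adjusted p = 0.133), and by -0.76 ± 0.17 in CD90+/CD133- cells (adjusted p = 0.0121). Neither gene passed between the CD90+ fractions (adjusted p = 0.0895 and 0.369). ERG was at the floor on all 10 CD90+ arrays and at 16.2 to 31.3 in CD90-/CD133- cells, at least 1.47-fold lower in each CD90+ fraction (limma adjusted p = 0.0171 for CD90+/CD133+ and 0.0163 for CD90+/CD133- cells). SMAD3 was higher by 0.41 in CD90+/CD133+ cells and by 0.33 in CD90+/CD133- cells, the second lost without the block (adjusted p = 0.106). TCF12 was higher by 0.53 in CD90+/CD133- cells, lost in 6 of 20 fits that left out 1 array or 1 replicate number, and differed by 0.26 in CD90+/CD133+ cells, which did not pass.

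Genes known as RUNX targets, mostly from blood and bone, gave 18 measured genes, of which 4 were at the floor on every array. In CD90+/CD133+ cells 2 were higher and 1 lower (11.1% and 5.56%, against 13.1% and 15.8% of all genes), and in CD90+/CD133- cells 2 were higher and 2 lower (11.1% each, against 14% and 16.2% of all genes), relative to CD90-/CD133- cells. Without the replicate block 1 was higher in CD90+/CD133- cells, and the other counts did not move. SPP1 (osteopontin) read 6.11 to 10.8 in CD90+/CD133+, 8.61 to 17.6 in CD90+/CD133- and 14.5 to 268 in CD90-/CD133- cells. It was at least 4.13-fold lower in CD90+/CD133+ cells, all at the floor (limma adjusted p = 0.0389), and it was also lower in CD90+/CD133- cells (adjusted p = 0.0393), where 4 of the 5 arrays were at the floor, so that the size of that change was not measured. Both SPP1 calls were lost in 14 of 20 fits that left out 1 array or 1 replicate number. BCL2L11 (BIM), a pro-apoptotic gene, was higher by 0.87 ± 0.09 in CD90+/CD133+ cells and by 0.98 ± 0.09 in CD90+/CD133- cells (adjusted p = 2.98e-04 and 1.52e-04). ITGAE (CD103) fell by 0.57 ± 0.08 in CD90+/CD133- cells (adjusted p = 9.32e-04), and PF4 was higher by 0.39 and 0.25, the second lost in 17 of the 20 fits and without the block (adjusted p = 0.182).

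The 4 genes that passed between CD90+/CD133+ and CD90+/CD133- cells were all lower in CD90+/CD133+ cells. They were CARM1, an arginine methyltransferase (-0.38 ± 0.07, SE), HDAC2, a histone deacetylase (-0.35 ± 0.07), KAT6A, the MOZ acetyltransferase (-0.22 ± 0.04), and CDK6, a cell cycle kinase (-0.40 ± 0.08), with limma adjusted p of 0.0324, 0.0383, 0.0250 and 0.0411. None of the 4 passed without the replicate block. Each was lost in 13 or more of the 20 fits that left out 1 array or 1 replicate number.

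**Figure D4:**
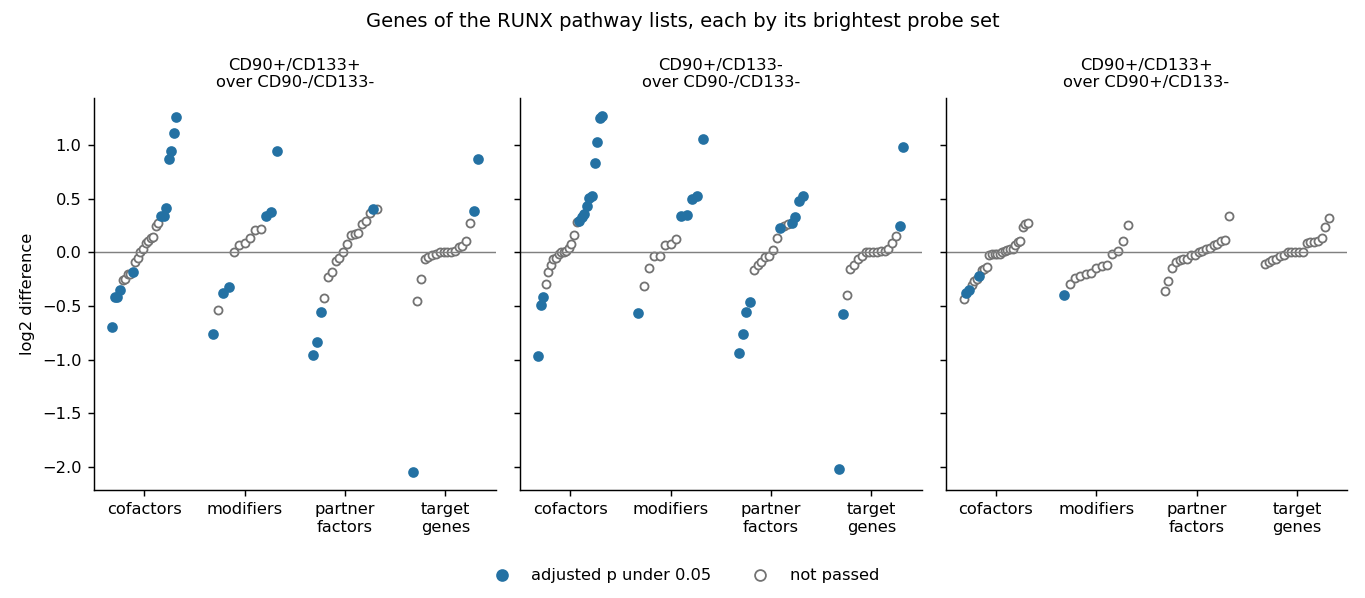
Log2 difference of each of the 75 measured genes of the 4 RUNX pathway lists, each by its brightest probe set, in the 3 comparisons (filled points have a limma adjusted p under 0.05; genes are sorted by difference within a list). The values span -2.05 to 1.26 in CD90+/CD133+ and -2.02 to 1.27 in CD90+/CD133- over CD90-/CD133- cells, and -0.44 to 0.34 in CD90+/CD133+ over CD90+/CD133- cells.

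The genes that lie beside CBFB on its chromosome had smaller differences than its probe sets. The 10 measured genes on each side in gene order had log2 differences of -0.61 to 0.30 in CD90+/CD133+ and -0.57 to 0.17 in CD90+/CD133- relative to CD90-/CD133- cells, with medians of -0.08 and -0.12. Of the 20, 0 were higher and 5 lower in CD90+/CD133+ cells (against 13.1% and 15.8% of all genes), and 0 higher and 3 lower in CD90+/CD133- cells (against 14% and 16.2% of all genes). Without the replicate block 3 were lower in each. TRADD, an adaptor of the TNF receptor, fell by 0.43 ± 0.07 (SE, limma adjusted p = 0.00305) in CD90+/CD133+ cells and by 0.57 ± 0.07 (adjusted p = 7.20e-04) in CD90+/CD133- cells. ELMO3, of the ELMO engulfment family, fell by 0.61 ± 0.14 (adjusted p = 0.0131) and by 0.54 ± 0.14 (adjusted p = 0.0210), neither held without the block (0.0636 and 0.0927), and the second was lost in 10 of the 20 fits that left out 1 array or 1 replicate number. NOL3 passed as lower in CD90+/CD133- cells (-0.55), and DYNC1LI2 (-0.44, adjusted p = 0.0923 without the block), NAE1 (-0.20, lost in 16 of the 20 fits) and B3GNT9 (-0.46, lost in 8) in CD90+/CD133+ cells. In the other CD90+ fraction they did not pass, at -0.23 for NOL3, -0.19 for DYNC1LI2, -0.18 for NAE1 and 0.02 for B3GNT9. Between CD90+/CD133+ and CD90+/CD133- cells CIAO2B alone passed, as higher by 0.37 ± 0.07 (adjusted p = 0.0391), and was lost in 18 of the 20 fits and without the block (adjusted p = 0.196).

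**Figure D5:**
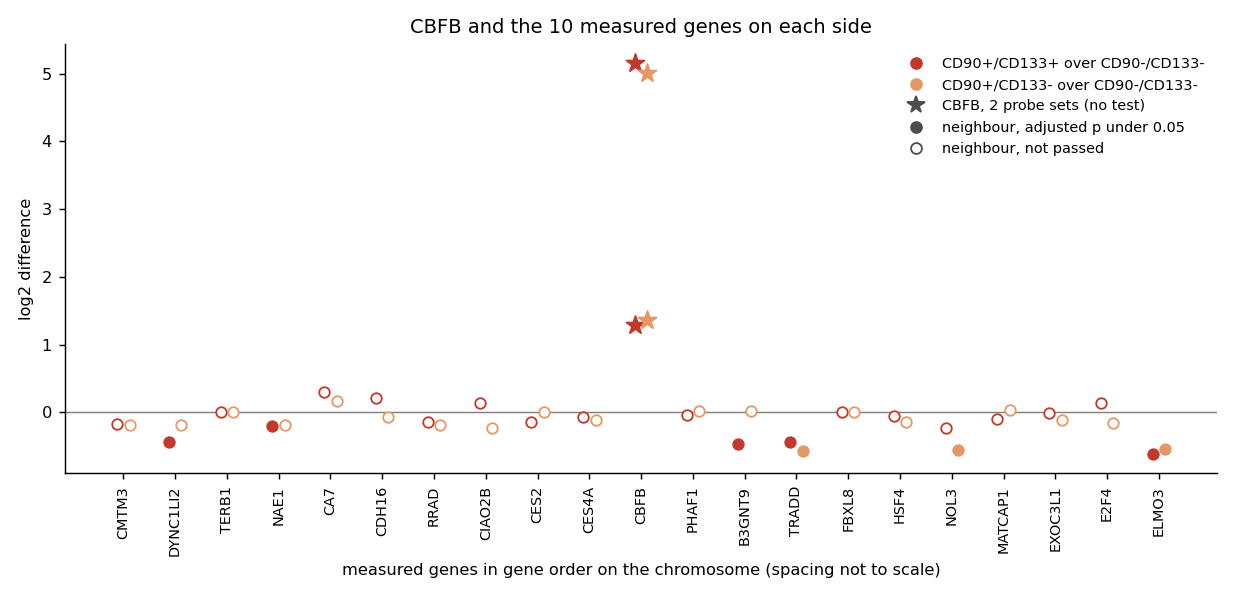
Log2 difference of CBFB (stars, 2 probe sets, not tested) and of the 10 measured genes on each side, in gene order with spacing not to scale, for both comparisons with CD90-/CD133- cells (filled circles have a limma adjusted p under 0.05). The CBFB probe sets stand at 5.15 and 1.29 in CD90+/CD133+ and at 5.02 and 1.36 in CD90+/CD133- cells, while the neighbours lie between -0.61 and 0.30.

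Among 15417 genes above the floor on at least 8 arrays, those whose level over the 15 arrays was most like that of CBFB (202370_s_at) were AFAP1-AS1 and CDO1, each at Pearson r = 0.995. BASP1, MCAM, RILPL2, SOX7, RNF34, GIPC2, ATP5MK and SWINGN followed at r = 0.986 to 0.992. AFAP1-AS1, a long non-coding RNA, read 421 to 585 in CD90+/CD133+, 422 to 591 in CD90+/CD133- and 20.9 to 66.8 in CD90-/CD133- cells. CDO1, cysteine dioxygenase, read 211 to 266, 227 to 264 and 13.0 to 25.1 in the same order of fractions. MCAM, the adhesion protein CD146, read 745 to 910.3, 708 to 869 and 95.5 to 172. The most opposed were GPC4 (r = -0.991), EPDR1, GNLY, SCEL and CBX2 (-0.985), all lower on CD90+ arrays. These correlations describe 15 arrays that share the same split by CD90, and after each fraction's mean was removed they were 0.04 (GIPC2) to 0.88 (AFAP1-AS1) for the 10 most like genes and -0.61 (EPDR1) to -0.23 (CBX2) for the 5 most opposed. The limit of 8 arrays admits genes read on CD90+ arrays alone, such as GIPC2, at the floor on all 5 CD90-/CD133- arrays. It leaves out genes read on the 5 CD90-/CD133- arrays alone, so the search for opposed genes was not complete.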

How the data were processed

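RNA from 15 samples of sorted PEO1 cells was hybridised by the authors to whole-genome 3′ expression arrays. The deposited table holds 1 linear intensity for each probe set and array, after a cross-correlation normalization by the authors, and 5 is its lowest value on each of the 15 arrays. How probes were summarised, and where the 5 comes from, is not given in the sources used. The number of arrays limits the precision.

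No further normalization was applied. Values below 16 were raised to 16 before log2. Of 54675 probe sets, 62 controls were set aside. Of the 54613 tested, 41091 name 1 gene, 1801 name several and 11721 are unnamed here. The 41091 gave 19775 genes, each represented by the probe set with the highest mean over the 15 arrays, and 41037 of the probe sets matched the RefSeq gene table (GRCh38.p14) by gene number. Of 13 RUNX1 probe sets, all of which name RUNX1 with 2 non-coding genes, 1 was assigned to RUNX1 by its accession. All 15 arrays were fitted in R 4.3.3 using limma 3.58.1 (eBayes after lmFit, 3 fractions plus replicate number as a block, 2-sided, Benjamini-Hochberg, adjusted p under 0.05). The fit was tested on simulated data. Tables were made with Python 3.11.15 and pandas 2.3.3.

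The members, gene lists and tests were chosen with earlier results of these data known. The genes named are all member probe sets, at most 4 called genes of each list and comparison with the largest change, the called neighbours of CBFB, the 10 genes most like and 5 most unlike CBFB, and THY1 and PROM1. EPCAM, CD14, PTPRC and LUM were named after their values were seen.

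Whether replicate numbers pair the arrays was checked on deviations from fraction means. Same-numbered arrays of different fractions correlated at 0.14 to 0.80 in all 15 pairs, and different numbers at 0.31 or less, so the number was kept as a block. No arrays held identical values (highest correlation 0.997). The design text speaks of triplicates, while the labels number replicates 1 to 5, and the labels were used.

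Alternatives were no block, the label code as block, only the 2 fractions compared, quantile normalization, median centring, floors of 5 and 64, only probe sets of mean log2 of 5 or more, an intensity trend, the mean of probe sets, an unpaired t-test, 1.5-fold of arithmetic means, and each replicate number and array left out. The methods name t-tests for the study but no test for the arrays, where a 1.5-fold change of averages selected genes. Counting the 12 shared RUNX1 probe sets was added after the data were seen.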

Additional observations from a re-analysis of the deposited data

Results flagged for a closer look

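Within the 58 sets of 5 arrays checked (a probe set in a fraction, above the floor on at least 4 arrays), 5 had 1 array far from the other 4 by Dixon's ratio (critical value 0.71), and chance flags about 1 in 20. CBFB 206788_s_at was lowest in replicate 5 of CD90-/CD133- cells at 26.2, with the next array at 37.3. RUNX1 208129_x_at was highest in replicate 1 of CD90+/CD133- cells at 44.8, with the next at 33.1. CBFA2T2 207625_s_at was highest in replicate 5 of CD90+/CD133- cells at 172.7, with the next at 123.8. CBFA2T2 1554637_a_at was lowest in replicate 1 of CD90+/CD133+ cells at 17.6, with the next at 24.4. The shared RUNX1 probe set 210365_at was highest in replicate 4 of CD90-/CD133- cells at 48.7, with the next at 35.8. Leaving out any of these arrays changed no direction of a called RUNX1 or CBFA2T2 difference.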

How the results depend on the processing

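No called member probe set or named list gene reversed its direction under any alternative run, but counts moved. With a floor of 64, those that never exceed 64 (RUNX1 208129_x_at and ERG among them) show no difference and so have no direction. Below, the comparisons run in the order CD90+/CD133+ over CD90-/CD133-, CD90+/CD133- over CD90-/CD133- and CD90+/CD133+ over CD90+/CD133- cells. Without the replicate block, the probe sets of the 6 genes other than CBFB that passed numbered 2, 1 and 0 (4, 2 and 0 with it), the higher list genes numbered 14 in the second comparison (22 with it) and the lower ones 0 in the third (4 with it). By list, leaving out the block moved the higher modifiers to 0 and 2 (3 and 5 with it), the higher partner factors in the second comparison to 1 (5 with it), the higher targets there to 1 (2 with it) and the lower epithelial markers to 3 and 2 (5 and 4 with it). Lower CBFB neighbours numbered 3 and 3 (5 and 3 with it) and higher ones in the third comparison 0 (1 with it). The unpaired t-test gave 2 and 1 member probe sets, 8 and 10 higher list genes, and 5 lower ones in the second and 0 in the third comparison. A 1.5-fold change of arithmetic means, with no test, was met by 0 member probe sets in the second comparison, by 6 higher and 6 lower list genes in the first, by 6 and 5 in the second and by 0 lower ones in the third. With the 12 shared RUNX1 probe sets 8 and 6 passed. With a floor of 64, members that passed numbered 2 and 1, CBFB 202370_s_at differed by 3.66 and 3.53, 206788_s_at by 0.49 and 0.56, and the median of the CBFB neighbours was -0.0046 and -0.0046, since the higher floor raises dim values. With the filter on dim probe sets, 2 members, 1 higher and 7 lower list genes passed in the third comparison. There, 1 higher list gene also passed with a floor of 5, median centring and the mean of probe sets, and 2 lower ones with median centring and with the label code as block. With only the 2 fractions compared, 5 lower list genes passed in the second comparison and 0 in the third. The cause of these shifts in counts was not tested.

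Leaving out 1 array or 1 replicate number gave 3 to 6, 2 to 3 and 0 to 1 member probe sets, 11 to 15, 12 to 21 and 0 to 0 higher and 8 to 14, 7 to 12 and 0 to 4 lower list genes. The 12 came without replicate 4 and 14 without replicate 2. The CBFB 202370_s_at difference was 4.98 to 5.40, 4.85 to 5.28 and -0.01 to 0.24, the last negative (-0.0078) without CD90+/CD133- replicate 3. The 206788_s_at difference was 1.17 to 1.38, 1.24 to 1.44 and -0.12 to -0.00096, and the neighbours' median -0.11 to -0.05, -0.15 to -0.09 and 0.00 to 0.08. A probe set at the floor on every array, as for CBFA2T3 and 6 of 7 for RUNX1T1, sets no limit on a change below 16.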
